A study of Homo sapiens with 10 samples.

Results

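The 44 genes described here present antigens to T cells or carry the interferon response, and they were followed through ChIP-seq peak lists of the corepressor proteins RCOR1, RCOR2 and RCOR3 and of the histone demethylase LSD1. They were taken by name from the RefSeq gene table on GRCh38, which holds 19974 protein-coding genes. They fall into 14 genes of class I presentation, 7 of class II presentation, 6 sensors of foreign nucleic acid with their adaptors, 9 genes of interferon signalling (1 interferon, 2 receptor chains and 6 transcription factors) and 8 interferon-induced genes. The cells were Kelly, an adrenergic neuroblastoma line with amplified MYCN, and 10 libraries form 5 groups of 2. RCOR1 and RCOR3 were precipitated with their own antibodies from cells without treatment. RCOR2 was precipitated through its 3xFLAG tag from cells that received 2 µg/mL doxycycline for 48 h, and the same anti-FLAG antibody on these cells without doxycycline gave the uninduced FLAG group. LSD1 was precipitated from a Kelly derivative with an inducible short hairpin RNA to RUNX1T1, to which no doxycycline was given. RCOR2 was therefore a tagged protein made on induction, whereas the other proteins were the cells' own, and the LSD1 cells differ from the others by the hairpin construct. The labels do not say whether the 2 libraries of a group came from separate cultures. The smallest two-sided p that an exact test of 2 libraries against 2 allows is 0.333, so counts and values are described without a test.

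Class I molecules are a heavy chain (HLA-B, HLA-C and the nonclassical HLA-E, HLA-F and HLA-G) with the light chain B2M, and they carry peptides that the immunoproteasome cuts, the TAP transporter moves into the endoplasmic reticulum and the ERAP aminopeptidases trim. Class II molecules are pairs of alpha and beta chains that are made mainly by professional antigen-presenting cells under the coactivator CIITA. Cytosolic and endosomal sensors such as RIGI, IFIH1, TLR3 and CGAS detect viral or misplaced nucleic acid and switch on IFNB1 through IRF3 and IRF7. Secreted interferon then signals through IFNAR1 or IFNGR1 to STAT2, IRF9 and IRF1, which bind interferon-stimulated response elements and gamma-activated sites at the induced genes. MYCN-amplified neuroblastoma is known for low class I display. LSD1 removes methyl groups from histone H3 lysine 4 and works with the RCOR (CoREST) proteins, and its loss is known to raise interferon signalling in several tumour types.

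Upstream sequences are printed for genes at opposite ends of the pattern reported below. STAT2 and IRF9 encode the subunits of the factor that carries type I interferon signals, and IFNAR1 encodes a chain of the type I receptor. At their starts both libraries of RCOR1 and RCOR3 had peaks, and STAT2 and IFNAR1 had RCOR2 regions as well. IFNAR1 has 2 listed starts, and its printed stretch precedes the upstream start. ISG15, IFIT1 and CXCL10 are genes that interferon turns on, and no region of any protein lay at their ends. B2M and CD274, which encodes the checkpoint ligand PD-L1, had RCOR2 but no shared region of RCOR1, RCOR3 or LSD1. Each sequence is the stretch of 250 bases before a listed transcription start, from RefSeq (GRCh38.p14), written 5′ to 3′ on the strand of the gene. Capitals mark matches on either strand to GAAANNGAA, a core of the interferon-stimulated response element, or to TTCNNNGAA, the gamma-activated site. The stretches are chr12:56360108-56360357 (minus strand) for STAT2, chr14:24161015-24161264 (plus) for IRF9, chr21:33324145-33324394 (plus) for IFNAR1, chr1:1013247-1013496 (plus) for ISG15, chr10:89392373-89392622 (plus) for IFIT1, chr4:76023498-76023747 (minus) for CXCL10, chr15:44711267-44711516 (plus) for B2M and chr9:5450292-5450541 (plus) for CD274.
STAT2: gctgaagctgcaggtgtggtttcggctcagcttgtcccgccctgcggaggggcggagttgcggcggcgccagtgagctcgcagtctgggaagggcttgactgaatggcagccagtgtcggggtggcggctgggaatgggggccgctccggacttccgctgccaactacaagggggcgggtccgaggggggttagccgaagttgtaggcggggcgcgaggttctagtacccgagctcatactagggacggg
IRF9: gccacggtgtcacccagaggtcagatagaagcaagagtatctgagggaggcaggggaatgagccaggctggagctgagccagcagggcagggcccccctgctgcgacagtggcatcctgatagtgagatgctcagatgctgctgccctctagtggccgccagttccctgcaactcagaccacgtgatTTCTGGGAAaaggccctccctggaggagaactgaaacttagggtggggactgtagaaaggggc
IFNAR1: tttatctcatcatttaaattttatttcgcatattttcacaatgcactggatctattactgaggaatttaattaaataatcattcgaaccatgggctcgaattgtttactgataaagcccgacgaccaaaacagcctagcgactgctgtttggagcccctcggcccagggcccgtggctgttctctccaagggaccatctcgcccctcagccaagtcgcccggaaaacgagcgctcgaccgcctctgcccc
ISG15: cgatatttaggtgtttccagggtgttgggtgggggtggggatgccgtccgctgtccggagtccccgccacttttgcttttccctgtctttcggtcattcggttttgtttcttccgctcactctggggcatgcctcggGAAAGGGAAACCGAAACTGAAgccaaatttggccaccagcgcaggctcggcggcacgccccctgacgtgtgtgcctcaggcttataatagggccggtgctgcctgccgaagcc
IFIT1: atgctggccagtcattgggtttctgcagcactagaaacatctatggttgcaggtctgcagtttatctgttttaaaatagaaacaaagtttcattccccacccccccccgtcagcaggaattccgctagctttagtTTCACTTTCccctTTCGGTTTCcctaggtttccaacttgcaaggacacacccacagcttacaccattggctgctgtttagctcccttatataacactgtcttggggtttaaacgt
CXCL10: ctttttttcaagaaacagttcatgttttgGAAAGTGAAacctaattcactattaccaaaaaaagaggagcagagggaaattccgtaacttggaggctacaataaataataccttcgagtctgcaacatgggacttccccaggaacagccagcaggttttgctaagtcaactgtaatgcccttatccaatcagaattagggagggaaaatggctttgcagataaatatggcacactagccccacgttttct
B2M: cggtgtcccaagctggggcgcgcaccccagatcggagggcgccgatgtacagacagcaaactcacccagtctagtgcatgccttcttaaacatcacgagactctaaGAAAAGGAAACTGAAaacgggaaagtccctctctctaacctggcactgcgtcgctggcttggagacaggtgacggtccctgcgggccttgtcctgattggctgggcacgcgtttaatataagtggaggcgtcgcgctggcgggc
CD274: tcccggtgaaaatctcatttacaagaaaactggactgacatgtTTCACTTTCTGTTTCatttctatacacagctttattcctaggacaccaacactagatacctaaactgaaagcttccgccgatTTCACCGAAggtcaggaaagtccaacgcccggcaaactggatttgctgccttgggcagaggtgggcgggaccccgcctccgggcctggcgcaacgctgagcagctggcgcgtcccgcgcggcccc
In ISG15 a run of 3 overlapping response-element matches began 113 bases before the start, and in IFIT1 matches began 115 and 102 bases before it. The only capitals in IRF9 are a gamma-activated-site match that began 63 bases before the start, and the STAT2 and IFNAR1 stretches have none.

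Peaks on chromosomes 1 to 22 and X numbered 49250 and 18297 in RCOR1 replicates 1 and 2, 75643 and 59726 in RCOR2, 13644 and 27786 in RCOR3, 19392 and 19667 in LSD1, and 10253 and 14958 in uninduced FLAG. A region is a stretch where peaks of both libraries of a group met by at least 1 bp, and there were 13511 regions of RCOR1, 35870 of RCOR2, 7175 of RCOR3, 12694 of LSD1 and 3150 of uninduced FLAG. Read numbers were not used, so depth is unknown and a missing peak means only that none was called. The fold enrichment of a peak over local background is the authors' own value and ranks peaks within a library. It is not compared between proteins. The gene end stands for the 2 kb on each side of either end of the gene.

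RCOR2 and RCOR1 had regions at the ends of a smaller share of the 44 genes than of protein-coding genes in general, and the small counts of RCOR3 and LSD1 lay near the general share. RCOR2 lay at the end of 15 of the 44 genes (34.1%), against 70.8% of all protein-coding genes. RCOR1 lay at 8 (18.2%), against 30.5%. RCOR3 lay at 3 (6.82%), against 10.6%, and LSD1 at 1 (2.27%), against 4.17%. Uninduced FLAG had regions at 2 (4.55%), against 5.77%. Among single libraries, those of RCOR1 held peaks at 15 and 8 of the genes (11.5 ± 4.95, SD, n = 2) and those of RCOR2 at 19 and 20 (19.5 ± 0.707). Both RCOR3 libraries had peaks at 5 genes, the LSD1 libraries at 3 and 0 (1.5 ± 2.12), and the uninduced FLAG libraries at 8 and 5 (6.5 ± 2.12). Without its replicate 2, the RCOR1 count was 15 in place of 8, and LSD1 replicate 2 alone gave 0. The RCOR3 count was 5 with either library alone and 3 with both, and the uninduced count was 5 or 8 with 1 library.

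**Figure D1:**
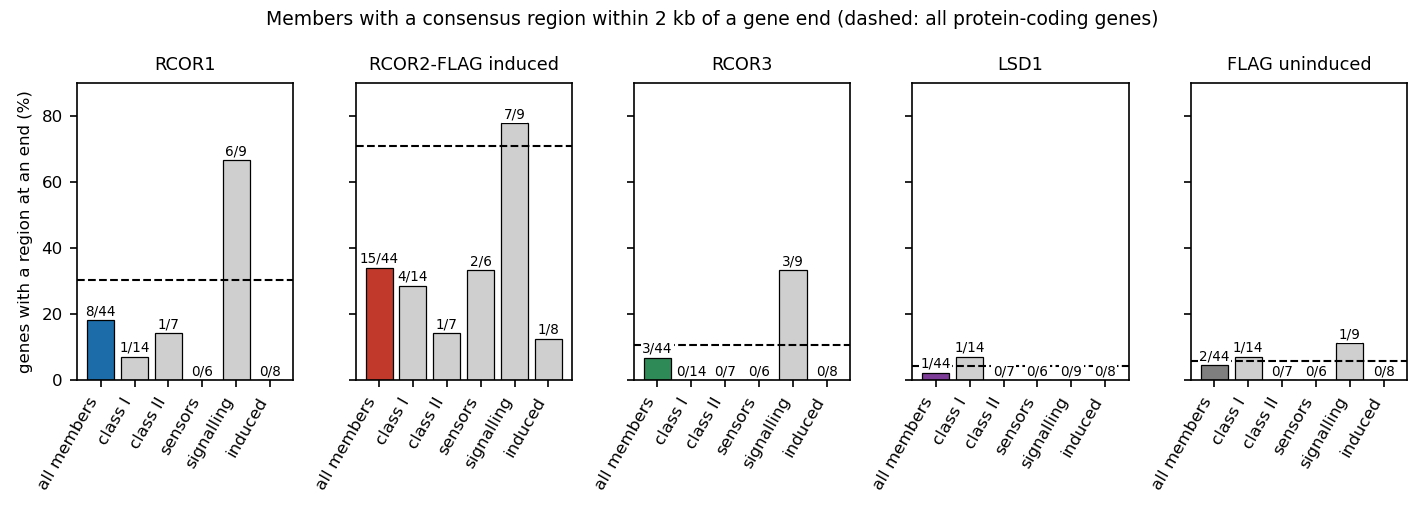
Share of genes (y axis, %) with a region within 2 kb of a gene end, for all 44 genes and for each class, in 1 panel per group of libraries; fractions above the bars give the genes with a region and the genes in the class, and the dashed line is the share of all 19974 protein-coding genes. Only the signalling class stood above the dashed line for RCOR1, RCOR2 and RCOR3.

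When the window was widened to 50 kb, RCOR2 was near 32 genes (72.7%, against 89.7% of all genes) and RCOR1 near 20 (45.5%, against 60.5%). RCOR3 was near 10 (22.7%, against 35.5%). LSD1, at the end of 1 gene, was within 50 kb of 13 (29.5%, against 32.5%), and uninduced FLAG reached 9 (20.5%, against 15.7%). RCOR3 replicates 1 and 2 alone had peaks near 16 and 25 of the genes, and uninduced FLAG replicate 1 alone near 16. The genes are shorter than most, with a median length of 13786 bp against 24170.5 bp over all protein-coding genes, and the part of gene length in these shares was not tested. Counted per gene, 28 of the 44 had none of the 4 proteins at an end (63.6%, against 28.1% of all genes). A single protein was found at 8 (18.2%, against 39.95% of all genes) and a pair at 5 (11.4%, against 21.4%). The 3 genes with 3 proteins were IFNAR1, STAT2 and ERAP1 (6.82%, near the 8.90% of all genes). None of the 44 had all 4, which were found at only 1.62% of all genes. By class, RCOR2 was within 50 kb of all 9 signalling genes and all 6 sensors, 6 of the 8 induced genes, 7 of the 14 class I genes and 4 of the 7 class II genes. For RCOR1 these counts were 7, 3, 5, 3 and 2, and for RCOR3 they were 5, 1, 1, 2 and 1. HLA-B, HLA-G and HLA-DRA had no peak within 50 kb in any of the 10 libraries.

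**Figure D2:**
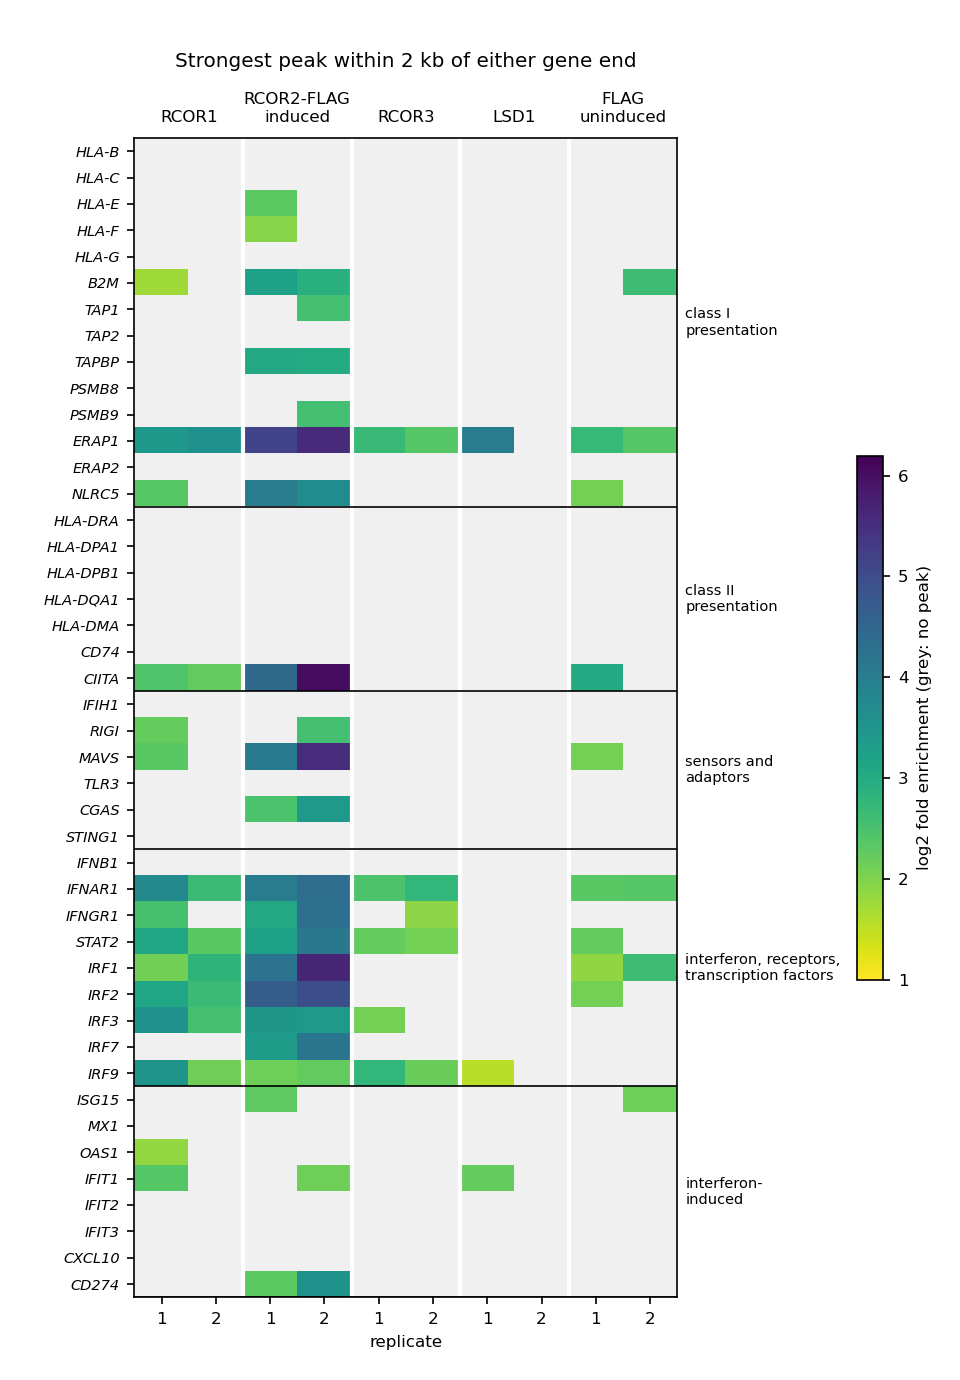
Strongest peak within 2 kb of either end of each gene (rows, by class) in each library (columns), coloured by log2 of the authors' fold enrichment, with grey where no peak was called. Colour is concentrated in the signalling rows, and 20 rows are grey throughout.

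In the interferon signalling class, RCOR2 lay at 7 of 9 genes (77.8%), which is near the 70.8% of all protein-coding genes. RCOR1 lay at 6 (66.7%, against 30.5%), RCOR3 at 3 (33.3%, against 10.6%), LSD1 at none (against 4.17%) and uninduced FLAG at 1 (11.1%, against 5.77%). IFNAR1 had peaks of 13.4 and 6.30 fold in the RCOR1 libraries, 16.0 and 20.2 fold in RCOR2, 5.49 and 6.72 fold in RCOR3, and none in LSD1. Both uninduced FLAG libraries also had a peak there, of 5.06 and 5.19 fold. The regions of all 4 groups overlapped and lay at the listed starts, with the RCOR3 region in chr21:33324660-33325072. This RCOR3 region covers the downstream start of IFNAR1 and does not overlap the upstream stretch printed above. STAT2 had RCOR1 peaks of 8.63 and 5.05 fold, RCOR2 peaks of 9.39 and 17.3 fold and RCOR3 peaks of 4.68 and 4.25 fold. There was no LSD1 peak at STAT2, and 1 of the 2 uninduced libraries had a peak of 4.69 fold. The STAT2 region of RCOR3, chr12:56360154-56360491, lies 47 bp from the listed start and overlaps the upstream stretch printed above. The RCOR1 and RCOR2 regions there also reach the annotated end of APOF.

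IRF9, the DNA-contacting partner of STAT2, had RCOR1 and RCOR3 in shared regions but RCOR2 peaks that did not meet. Its RCOR1 peaks were of 11.4 and 4.36 fold, and its RCOR3 peaks of 6.78 and 4.48 fold. The RCOR2 peak of 4.43 fold in replicate 1 lies at the far end, and that of 4.78 fold in replicate 2 at the start. LSD1 replicate 1 had a peak of 2.91 fold at IRF9, replicate 2 had none, and neither uninduced library had one. The RCOR1 region chr14:24160857-24161356 covers the printed IRF9 stretch. Within the RCOR2 libraries the IRF9 peaks were among the weaker ones, at percentiles 20.5 and 23.5 of fold.

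IRF1 and IRF2, an activator and an antagonist on interferon response elements, had RCOR1 and RCOR2 regions and no RCOR3 or LSD1 peak. At IRF1 the RCOR1 peaks were of 4.31 and 7.03 fold and the RCOR2 peaks of 18.7 and 50.2 fold, all at the start. Uninduced replicate 1 had 3.65 fold there, and the peak of 6.13 fold in replicate 2 lies at the far end of IRF1. At IRF2 the peaks were of 8.72 and 6.30 fold for RCOR1 and 25.4 and 30.8 fold for RCOR2, and uninduced replicate 1 had 4.24 fold. In the RCOR2 libraries the IRF1 peaks ranked at percentiles 93.7 and 96.4 of fold. IRF3, which is activated below the sensors, had RCOR1 peaks of 11.5 and 5.79 fold, RCOR2 peaks of 10.9 and 10.6 fold and an RCOR3 peak of 4.23 fold in replicate 1 only. The IRF3 regions lie over the start of BCL2L12 as well, so they cannot be assigned to either gene. IRF7, the interferon-inducible relative of IRF3, had RCOR2 peaks of 9.96 and 18.1 fold and no peak of any other group. IFNGR1, the receptor chain for interferon gamma, had RCOR2 peaks of 8.30 and 19.7 fold, an RCOR1 peak of 5.70 fold in replicate 1 and an RCOR3 peak of 3.73 fold in replicate 2. IFNB1, the interferon itself, had no peak at either end in any library.

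Of the 6 sensors and adaptors, MAVS and CGAS had an RCOR2 region at an end (33.3%, against 70.8% of all genes). No gene had RCOR1 (against 30.5%), RCOR3 (against 10.6%) or LSD1 (against 4.17%). MAVS is the mitochondrial adaptor of RIGI and IFIH1, and its RCOR2 peaks at the start were of 16.6 and 46.8 fold. RCOR1 replicate 1 had 5.03 fold and uninduced replicate 1 had 4.28 fold there. CGAS, the sensor of cytosolic DNA, had RCOR2 peaks of 5.53 and 10.6 fold and no other peak. RIGI, a sensor of viral RNA, had 1 peak of RCOR1 (4.70 fold, replicate 1) and 1 of RCOR2 (5.85 fold, replicate 2), and so no shared region. IFIH1, TLR3 and STING1 had none at their ends, although an RCOR2 region lay within 50 kb of all 6 sensors (against 89.7% of all genes).

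Class I presentation had RCOR2 at the ends of 4 of 14 genes (28.6%, against 70.8% of all genes). RCOR1 (7.14%, against 30.5%) and LSD1 (7.14%, against 4.17%) each lay at 1, which was ERAP1. RCOR3 lay at none (against 10.6%). B2M had RCOR2 over its own start and response-element matches, in a region that also covers the start of PATL2. Its RCOR2 peaks were of 9.40 and 7.44 fold in the region chr15:44711304-44712142, RCOR1 replicate 1 had 3.35 fold, and uninduced replicate 2 had 6.13 fold. NLRC5, the coactivator of class I genes, had RCOR2 peaks of 16.0 and 12.8 fold at its lower end, with 4.28 fold in uninduced replicate 1. The RCOR1 peak of 5.07 fold in replicate 1 lies at the opposite end of NLRC5. For TAPBP, the chaperone that loads peptide, the RCOR2 region chr6:33298863-33299622 (8.30 and 4.25 fold) lies at the far end, 14456 bp from its own listed start and over the start of RGL2. Near the TAPBP start, RCOR2 replicate 2 alone had a peak of 7.97 fold, with its highest point at chr6:33315142. HLA-E and HLA-F had a single RCOR2 peak each in replicate 1, of 4.98 and 3.87 fold. TAP1 and PSMB9, a transporter subunit and an immunoproteasome subunit, share 1 RCOR2 peak of 5.85 fold in replicate 2. HLA-B, HLA-C, HLA-G, TAP2, PSMB8 and ERAP2 had no peak at an end in any library. Reads of the HLA genes can map to near-identical copies, so their values are uncertain in either direction.

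ERAP1 had regions of 3 proteins at its ends, but they lie at different places. The table gives ERAP1 a span that reaches the start of LNPEP. There, in chr5:96934679-96936687, the RCOR2 peaks were of 35.4 and 47.3 fold, the RCOR1 peaks of 10.7 and 12.1 fold and the uninduced peaks of 6.61 and 5.19 fold. Both RCOR3 libraries also had peaks there, of 6.46 and 5.17 fold, that did not meet. At 1 of the 2 starts that the promoter table lists for ERAP1, a separate RCOR2 region, chr5:96807105-96808491, had 23.2 and 37.7 fold. The LSD1 region chr5:96762794-96763598 is at the opposite end, with peaks of 16.2 and 20.6 fold that also met RCOR1 and RCOR3. Only the replicate 1 peak of LSD1 reached into the 2 kb window, and the region lies 1981 bp from the gene end. With a window of 500 bp the LSD1 count was 0 of 44.

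Most presentation genes lie in the major histocompatibility complex, where peaks were sparse in every group but RCOR2, at other genes as well as these. The interval from HLA-F to TAPBP, chr6:29723434-33314078, holds 140 protein-coding genes, of which 15 are among the 44. None of the 140 had a region of RCOR1, RCOR3, LSD1 or uninduced FLAG even within 50 kb, whereas outside the interval 60.9%, 35.8%, 32.7% and 15.9% of genes did. RCOR1 had 2 and 3 peaks in the interval, against 149 and 45 in the stretch of equal length below it and 168 and 40 above it. RCOR3 had 0 and 12 peaks and the LSD1 and uninduced libraries had none, where LSD1 had 57 and 46 below and 36 and 30 above. RCOR2 kept more, with 80 and 67 peaks in the interval, against 132 and 136 below it and 189 and 161 above it. Its regions lay within 50 kb of 109 of the 140 genes (77.9%, against 89.8% outside) and at the ends of 52 (37.1%). At the ends, 51 of the 125 other genes (40.8%) and 1 of the 15 presentation genes (6.67%) had RCOR2. The lists also name alternate contigs of this complex, on which the RCOR2 libraries had 541 and 438 peaks, the RCOR1 libraries 16 and 10, RCOR3 2 and 81, LSD1 4 and 3, and uninduced FLAG 1 and 8. These contigs carry further copies of the complex, no gene positions on them were used, and their part in the low counts of class I and class II genes was not tested.

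**Figure D3:**
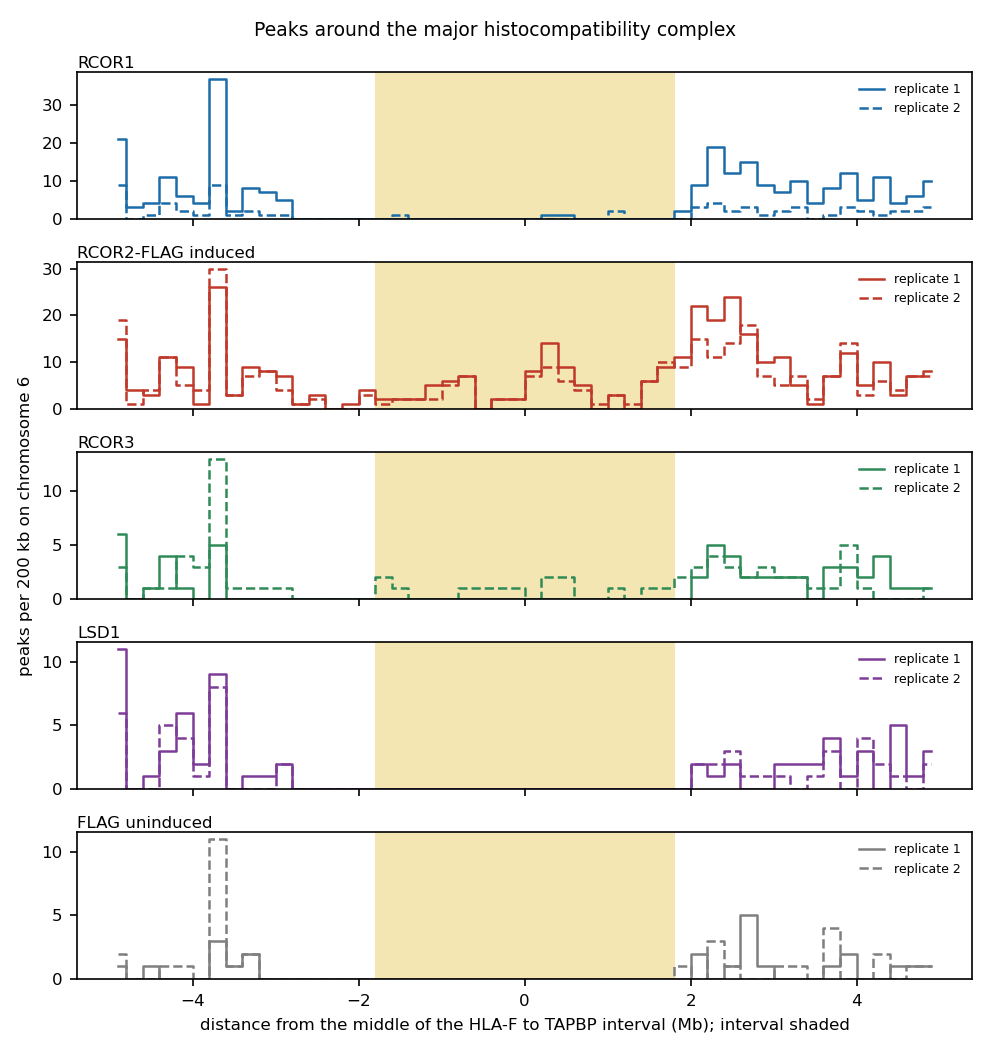
Peaks per 200 kb on chromosome 6 (y axis, a separate scale for each panel) against distance from the middle of the HLA-F to TAPBP interval (x axis, Mb), with replicate 1 solid and replicate 2 dashed and the interval shaded. The LSD1 and uninduced lines are at 0 throughout the shaded interval, and the RCOR2 libraries keep 80 and 67 peaks in it.

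Outside the interval 29 of the 44 genes remain, and for each of the 4 proteins their share at gene ends was closer to that of other genes there. RCOR1 lay at 8 of the 29 (27.6%, against 30.7% of all genes outside), RCOR3 at 3 (10.3%, against 10.6%) and LSD1 at 1 (3.45%, against 4.19%). RCOR2 lay at 14 (48.3%, against 71.0%). Within 50 kb, 3 of the proteins were above the share of other genes outside. RCOR1 was near 20 of the 29 (69.0%, against 60.9%), RCOR2 near 27 (93.1%, against 89.8%) and LSD1 near 13 (44.8%, against 32.7%). RCOR3 was near 10 (34.5%, against 35.8%) and uninduced FLAG near 9 (31.0%, against 15.9%). These values were computed after the sparse interval was seen.

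Class II presentation was almost without regions. The 5 alpha- and beta-chain or exchange-factor genes HLA-DRA, HLA-DPA1, HLA-DPB1, HLA-DQA1 and HLA-DMA and the invariant chain CD74 had no peak at an end in any library, and CD74 lies on chromosome 5, away from the complex. CIITA was the only 1 of the 7 class II genes with a region at an end. Its regions were of RCOR2 (14.3%, against 70.8% of all genes) and RCOR1 (14.3%, against 30.5%). RCOR3 (against 10.6%) and LSD1 (against 4.17%) lay at none. Just inside the upper end of CIITA, at DEXI, RCOR2 had peaks of 21.0 and 65.4 fold and RCOR1 of 4.03 and 4.20 fold. Uninduced replicate 1 also had a peak in the RCOR2 region at DEXI. At CLEC16A, RCOR2 had 11.9 and 34.9 fold, RCOR1 5.37 and 4.73 fold, and uninduced replicate 1 8.12 fold. The RCOR2 regions at CIITA, chr16:10941905-10942868 and chr16:10944322-10944979, cover the starts of DEXI and CLEC16A, so the calls at this end cannot be told apart from those of these neighbours.

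Among the interferon-induced genes CD274 was the only 1 of 8 with a region at an end, of RCOR2 (12.5%, against 70.8% of all genes). RCOR1 (against 30.5%), RCOR3 (against 10.6%) and LSD1 (against 4.17%) lay at none. The RCOR2 peaks of CD274, of 4.98 and 11.7 fold, met in chr9:5450388-5450739, over the listed start and the gamma-activated-site match before it. No other group had a peak at CD274. ISG15, a ubiquitin-like modifier, had an RCOR2 peak of 4.92 fold in replicate 1 and an uninduced peak of 4.44 fold in replicate 2 at the opposite end. IFIT1, which binds foreign RNA, had 5.17 fold in RCOR1 replicate 1, 4.42 fold in RCOR2 replicate 2 and 4.70 fold in LSD1 replicate 1. OAS1, the maker of the messenger that activates RNase L, had an RCOR1 peak of 3.58 fold in replicate 1, at its far end. MX1, IFIT2, IFIT3 and the chemokine gene CXCL10 had none. The peaks at ISG15, IFIT1 and OAS1 each came from 1 library of a group.

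The deposited lists of the whole series name a set of RCOR2-high regions and a set of RCOR2-low regions, defined in a way not given in the sources used here. The RCOR2 regions at the ends of CIITA, MAVS, IFNAR1, IRF1 and IRF2 and the one at the LNPEP start overlapped the high set. Those at NLRC5, IFNGR1, STAT2 and IRF3 overlapped the low set. When regions with a peak of either uninduced FLAG library were left out, RCOR2 was at 7 of the 44 genes in place of 15 (TAPBP, CGAS, IFNGR1, IRF2, IRF3, IRF7 and CD274), RCOR1 at 3 in place of 8 (CIITA, IRF3 and IRF9) and RCOR3 at 1 (IRF9). A gene stayed if any of its regions held no uninduced peak. IRF2 had 3 and 2 RCOR2 peaks at its ends. The highest points of the strongest, chr4:184474733 and chr4:184474679, lay beside that of the uninduced peak, chr4:184474643.

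LSD1 had 20 separate regions within 50 kb of the 44 genes, of which 3 (15.0%) lay at the end of any protein-coding gene, against 6.07% of all 12694 LSD1 regions. Of the 19 that were not at an end of the 44 genes, 2 (10.5%) were at the end of another gene. For RCOR2 there were 127 regions, 108 of them not at an end of these genes, and 63 of the 108 (58.3%) were at the end of another gene. RCOR1 had 23 of 39 such regions (59.0%) and RCOR3 8 of 19 (42.1%) at another gene's end. RCOR1 met 11 of the 20 LSD1 regions (55.0%), RCOR3 met 9 (45.0%) and RCOR2 met 6 (30.0%), and 7 stood alone (35.0%). Over all LSD1 regions the shares were 41.3%, 30.7%, 19.3% and 52.2%. RCOR1 and RCOR3 were both present at 9 of the 20 (45.0%, against 26.7% of all LSD1 regions), and 6 of the 9 had no RCOR2 region.

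The site near IFNB1 had the highest LSD1 rank of those outside the gene ends. It lies in chr9:21046989-21047717, 29387 bp beyond the far end of IFNB1 and 15349 bp from the start of HACD4. LSD1 had 14.8 and 22.5 fold there, RCOR1 19.2 and 6.64 fold and RCOR3 11.5 and 8.82 fold, and neither RCOR2 nor uninduced FLAG had a peak. All 6 libraries of the 3 proteins were thus positive and all 4 FLAG libraries negative. The site before IFNAR1 had the same make-up, in chr21:33281070-33281522, 42873 bp upstream of the gene and 14703 bp from the start of IL10RB. Its peaks were of 11.2 and 25.4 fold for LSD1, 14.4 and 7.88 fold for RCOR1 and 5.81 and 8.95 fold for RCOR3.

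CIITA had 3 such sites within 50 kb, all of them on the side of CLEC16A. At the nearest, chr16:10976560-10977104, LSD1 had 9.44 and 13.8 fold, RCOR1 20.8 and 9.45 fold, RCOR3 7.43 and 8.86 fold and RCOR2 13.8 and 9.57 fold, and uninduced replicate 2 had 7.55 fold. The others lie 46292 and 48679 bp from the gene, and the farther one had no RCOR2 peak. LSD1 had 6.90 and 9.63 fold at the first of them and 5.49 and 9.39 fold at the farther. Inside NLRC5, in chr16:57062237-57062688, all 8 libraries of the 4 proteins had a peak. LSD1 had 10.5 and 11.0 fold there, RCOR1 15.1 and 9.69 fold, RCOR3 9.37 and 9.51 fold, and RCOR2 4.34 and 4.81 fold, which ranked at percentiles 16.4 and 27.1 of the RCOR2 libraries. This NLRC5 site was the strongest by rank of the regions away from gene ends for both RCOR1 and RCOR3. Further sites of this kind lie inside ERAP1, described above, inside MAVS (LSD1 4.40 and 9.84 fold), and 15296 bp before OAS1, where RCOR1 had 20.8 and 6.30 fold, LSD1 5.36 and 8.63 fold, RCOR3 8.70 and 7.43 fold and RCOR2 4.85 fold in replicate 1 only.

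**Figure D4:**
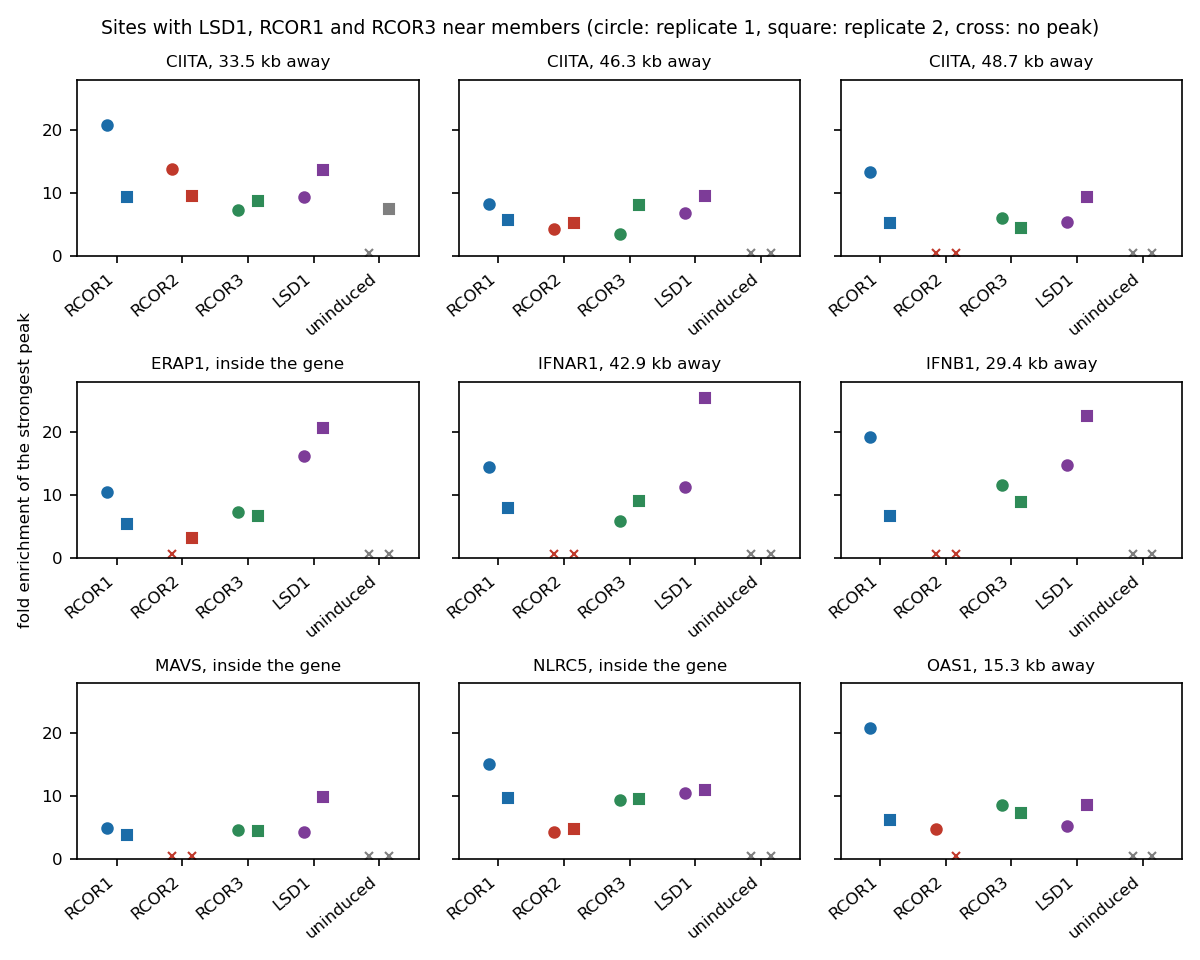
Fold enrichment (y axis) of the strongest peak of each library at the 9 sites within 50 kb of the 44 genes where LSD1, RCOR1 and RCOR3 regions met, with replicate 1 as a circle, replicate 2 as a square and a cross where no peak was called. The IFNB1 and IFNAR1 sites have crosses in all 4 FLAG libraries, and the NLRC5 site has a point in all 8 libraries of the 4 proteins.

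LSD1 without any RCOR region was found beside the induced genes OAS1, IFIT2 and IFIT3. Inside OAS1, chr12:112913193-112913774 had LSD1 peaks of 10.4 and 11.0 fold. A site shared by the windows of IFIT2 and IFIT3, chr10:89278071-89278633, had 10.8 and 8.07 fold and lies 23413 bp from IFIT2. In all, LSD1 lay within 50 kb of 4 of the 8 induced genes, 4 of the 14 class I genes (28.6%), 2 of the 7 class II genes (28.6%), 1 of the 6 sensors (16.7%) and 2 of the 9 signalling genes (22.2%). Over all protein-coding genes the share was 32.5%, near which class I and class II lay.

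Of the RCOR2 regions within 50 kb of a gene but not at its own ends, the strongest belonged to other genes' surroundings. By rank they were chr1:976004-978474 in the window of ISG15 (57.4 and 57.5 fold, 35023 bp away, with a start of PERM1 at 2699 bp), the LNPEP start in the window of ERAP2, and chr5:139517766-139518375 in the window of STING1 (29.9 and 45.8 fold, 35008 bp away). Both uninduced FLAG libraries had peaks in all 3 of these regions. The ISG15 window was also where uninduced FLAG ranked highest away from gene ends, with 6.76 and 8.03 fold.

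The listed starts differed between the classes in matched letters and in CpG number. The classes were set by the known role of each gene. Response-element matches at interferon-induced genes are therefore partly given by the choice and are only described. The RefSeq promoter table had windows of 300 bases (250 before and 50 after a start) for 34 of the 44 genes, 46 windows in all, and for 15812 protein-coding genes, 22132 windows. The genes without a window were HLA-E, NLRC5, HLA-DRA, CIITA, CGAS, STING1, IRF2, IRF3, IRF7 and IFIT2. GAAANNGAA, searched on both strands with overlapping matches allowed, was present in 20 of the 46 windows (43.5%), against 7.09% of all windows. It was in 8 of the 10 windows of the induced genes, 8 of the 18 of class I, 2 of the 6 of class II, 2 of the 4 of the sensors and none of the 8 of the signalling genes. TTCNNNGAA was in 10 of the 46 (21.7%, against 6.79%), and CACGTG, the E-box that MYC-family proteins bind, in 1 (IRF9, 2.17% of the windows, against 8.34%). A match of letters describes the window and does not show binding.

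Windows with RCOR2 near them held more CpG dinucleotides, here as over all promoters. The median was 16 CpG dinucleotides per window for the 46 windows and 21 for all windows, with 5.5 for the induced genes, 3 for class II, 17 for class I, 19.5 for the sensors and 25 for the signalling genes. The 10 windows with an RCOR2 region within 2 kb of the start had a median of 26.5 and the 36 without had 6.5. Over all promoters these medians were 27 and 4. The starts of IFIT1 and CXCL10, printed above, had 4 and 3, and those of STAT2, IRF1 and MAVS had 25, 36 and 34. Some starts without an RCOR2 region were also rich in CpG. ISG15, printed above as well, had 20, RIGI had 27, PSMB9 had 26 and 1 start of MX1 had 30. Counted at listed starts alone, RCOR2 was found at 8 of 34 genes (23.5%, against 72.2%), RCOR1 at 4 (11.8%, against 31.1%), RCOR3 at 3 (8.82%, against 10.8%) and LSD1 at none (against 3.91%). Whether CpG number accounts for the low RCOR2 count was not tested.

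**Figure D5:**
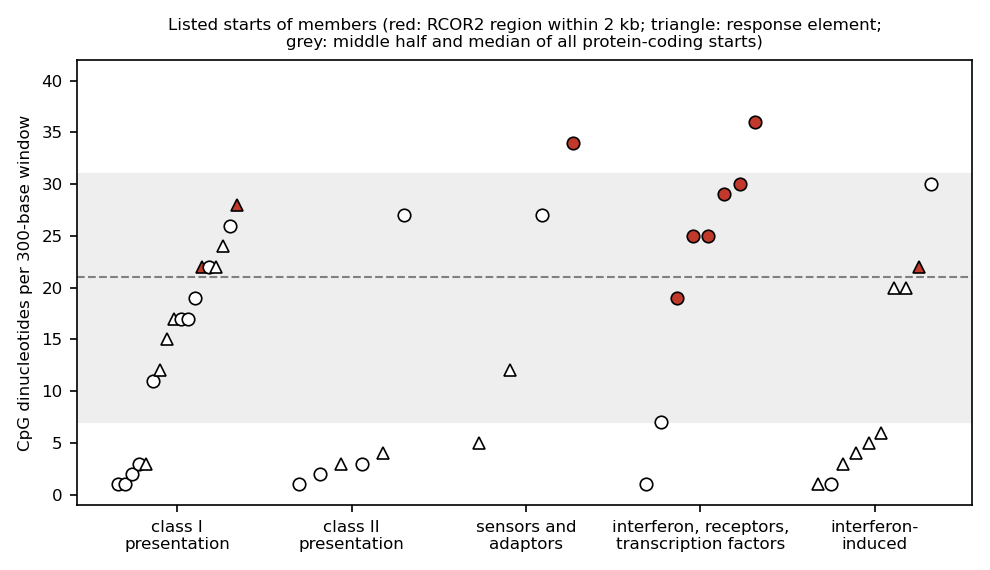
CpG dinucleotides per 300-base window (y axis) for the 46 listed starts of 34 genes, by class (x axis), red where an RCOR2 region lay within 2 kb of the start and triangular where the window holds the response-element core; the grey band is the interquartile range of all protein-coding starts and the dashed line their median of 21. Red points lie at 19 CpG or more, as do some points that are not red, and triangles are absent from the signalling class.

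In a wider list of 56 other genes of these pathways, RCOR2 lay at the ends of 38 (67.9%), near the 70.8% of all protein-coding genes. RCOR1 lay at 13 (23.2%, against 30.5%), RCOR3 at 8 (14.3%, against 10.6%), LSD1 at none (against 4.17%) and uninduced FLAG at 1 (1.79%, against 5.77%). RCOR2 lay at all 7 further class I genes, 8 of 11 class II genes (72.7%), 6 of 10 sensors, all 10 signalling genes and 7 of 18 induced genes (38.9%), and RCOR1, RCOR3 and LSD1 at none of these 18. Only 3 of the 56 lie in the HLA-F to TAPBP interval. By rank the leading RCOR2 regions included those of PDIA3, a disulfide isomerase of the loading complex (31.8 and 71.2 fold), and the kinase gene JAK2 (21.0 and 48.9 fold). For RCOR1 they were those of PSME2, a proteasome activator subunit (11.7 and 7.35 fold, over the start of RNF31), TAPBPL, a TAPBP relative (10.1 and 7.35 fold, over the start of VAMP1), the ubiquitin ligase gene TRIM25 (5.81 and 6.85 fold) and JAK2 (7.04 and 5.78 fold). The leading RCOR3 regions included TAPBPL (6.46 and 8.95 fold), the class II regulator RFX5 (4.79 and 5.96 fold) and PSME2 (5.49 and 5.22 fold), and the uninduced region was at NFYC (5.06 and 7.08 fold). Of the RCOR1, RCOR2 and RCOR3 regions named here, all but those at JAK2 also held a peak of 1 uninduced FLAG library.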

How the data were processed

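Kelly cells were measured by ChIP-seq in 10 libraries. Per the submitters' processing notes, BWA 0.7.17 aligned the reads to GRCh38, MACS2 called the peaks, and deepTools was used. The deposited lists hold the peaks of 1 library each. In these lists the authors' fold enrichment is a ratio over local background, and each peak also has a deposited −log10 of its q-value, with all peaks under a q-value of 0.05. Control library, duplicate handling and later filters were not given in the sources used here. Read depth is unknown. Peak names in several lists carry other replicate numbers than the labels, which were followed.

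Peaks were joined, counted by gene and matched to RefSeq promoters (GRCh38.p14) with Python 3.11.15, pandas 2.3.3 and numpy 2.4.6. Consensus regions need a peak of both libraries that overlap by at least 1 bp. The joining was tested on simulated data. The RefSeq gene table has no strand, so both gene ends were used. The members, classes and lists were chosen with earlier results of these data known. All 44 genes were named by whether they had a peak at an end, the 3 strongest regions per group away from ends and up to 4 further pathway genes per group by the lower of the 2 percentile ranks of fold. Neighbouring genes were named where a named region covers their start, and the sequences were chosen after the values were seen. Alternatives covered window size, overlap, peak thresholds, equal peak numbers (10253 per library), uninduced peaks and single libraries.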

Additional observations from a re-analysis of the deposited data

Results flagged for a closer look

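Peaks on the alternate contigs of the major histocompatibility complex are outside the gene counts above. In both RCOR2 libraries, both RCOR1 libraries and RCOR3 replicate 2 they exceeded those of the uninduced FLAG libraries, which had 1 and 8. RCOR3 replicate 1, with 2, and the LSD1 libraries, with 4 and 3, did not exceed 8. RCOR2 had 541 and 438 such peaks in replicates 1 and 2, RCOR1 had 16 and 10, and RCOR3 replicate 2 had 81. The RCOR2 libraries had 80 and 67 peaks in the same complex on the primary chromosome 6, and RCOR3 replicate 2 had 12. RCOR2 libraries also have more peaks in all, so these counts are not rates.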

How the results depend on the processing

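No paired analysis was possible because the results are counts of genes with no test. Of 74 alternative counts over all 44 genes, 34 stayed within 1.5 times the reported count and 40 did not. The share for RCOR2 stayed under that of all protein-coding genes in all 10 alternatives at gene ends and all 5 within 50 kb. RCOR1 did so in 9 of 10 and 5 of 5, RCOR3 in 10 of 10 and 3 of 5, LSD1 in 9 of 10 and 5 of 5, and uninduced FLAG in 6 of 9 and 4 of 5. The RCOR1 exception was with equal numbers of top peaks (11.4%, against 10.4%). No alternative within 50 kb left out the histocompatibility interval, outside which the RCOR1, RCOR2 and LSD1 shares were above those of other genes.

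At gene ends, peaks of either library raised RCOR1 to 15 genes, RCOR2 to 23, RCOR3 to 6, LSD1 to 3 and uninduced FLAG to 10. A 50% reciprocal overlap gave 2 for RCOR1 and 1 for RCOR3. A −log10 q of at least 5 gave 4 for RCOR1, 1 for RCOR3 and 0 for uninduced FLAG. Equal numbers of top peaks gave 5 for RCOR1, 5 for RCOR2 and 1 for RCOR3. Without regions that held an uninduced peak there were 3 for RCOR1, 7 for RCOR2 and 1 for RCOR3. A window of 500 bp gave 0 for LSD1. Listed starts alone, an alternative chosen after seeing the data as was the count outside the histocompatibility interval, gave 4 for RCOR1, 8 for RCOR2, 0 for LSD1 and 1 for uninduced FLAG. With 1 library the counts ran from 8 to 15 for RCOR1, 19 to 20 for RCOR2, 0 to 3 for LSD1 and 5 to 8 for uninduced FLAG, and were 5 for RCOR3.

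Within 50 kb, −log10 q of at least 5 gave 13 for RCOR1 and 2 for uninduced FLAG, and equal numbers gave 13 for RCOR1 and 16 for RCOR2. A 10 kb window left RCOR1 with 11, RCOR2 with 19, RCOR3 with 6, LSD1 with 4 and uninduced FLAG with 2. With 1 library the counts ran from 21 to 26 for RCOR1, 35 to 40 for RCOR2, 16 to 25 for RCOR3 and 13 to 16 for uninduced FLAG, and were 17 for LSD1. Smaller windows, stricter thresholds and fewer peaks lower such counts by construction. Of 234 class and pathway counts 73 moved by more than 1.5 times. Since read depth is unknown, a gene without a peak may lack signal or coverage.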
